A study of Homo sapiens with 8 samples.

Results

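The genes described are those with which a cell builds cholesterol and fatty acids, together with the regulators that set their transcription. There were 32 of them, 30 with a value among the 18377 genes that could be read from a probe set carrying 1 symbol, and each of the 30 had 1 such probe set. They fall into a sterol branch (15 of 17 genes with a value), a fatty acid branch (10 of 10) and a group of regulators with 1 sterol carrier (5 of 5). FDFT1, which joins farnesyl diphosphates into squalene, and HSD17B7, a sterol ketone reductase, were not analysed here because no probe set carries either symbol alone. RNA came from A549 cells, an established line from a human lung adenocarcinoma that is used as a model of type II alveolar epithelium. All cells were kept at an air-liquid interface, exposed for 4 hr and harvested 9 hr later. Cells exposed to primary pollutants (2 arrays) received, in the morning, a freshly injected urban hydrocarbon mixture with nitrogen oxides, called fresh in the labels. Their morning control (2 arrays) received humidified incubator air at the same hours. Cells exposed to photochemically altered (PCA) pollutants (2 arrays) received the same chamber's air in the evening, after a day of sunlight, called aged in the labels. Their evening control (2 arrays) again received humidified incubator air. The 2 arrays of a group came from separate samples of 1 exposure run, so the errors below leave out any variation from run to run.

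Cholesterol is assembled from acetyl-CoA through mevalonate, isoprenoid diphosphates and squalene, and lanosterol is then trimmed, reduced and isomerised to cholesterol. Fatty acids start from the same acetyl-CoA, are extended by fatty acid synthase and elongases, and are made fluid by desaturases that insert double bonds. Both branches are transcribed under the SREBP factors, encoded by SREBF1 and SREBF2, which INSIG proteins hold in the endoplasmic reticulum when sterols are plentiful. In the lung, type II cells draw on these enzymes for the lipid of surfactant.

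Values are log2 signals normalized by the authors, so a difference of 1 is a doubling of signal, and levels are compared between arrays but not between genes. Array medians lay between 6.93 and 7.03, and the replicates of each group correlated at 0.992 to 0.996 over all probe sets. The epithelial keratins KRT8 and KRT18 read 13.5 to 14.1 on every array. Of 7 type II markers, 5 read below the median of every array: SFTPB, SFTPC, NAPSA, LAMP3 and NKX2-1, which lay between 5.15 and 6.59. The other 2, the surfactant protein SFTPD (7.15 to 7.43) and the surfactant lipid transporter ABCA3 (7.55 to 7.77), read above it. Leukocyte and endothelial markers other than CD68 read at most 6.15. Of the 4 fibroblast markers, COL1A1 read 7.95 to 8.44, above every array median. COL1A2 read 6.64 to 7.04, COL3A1 6.86 to 7.17 and PDGFRB 6.05 to 6.24. After PCA pollutants COL1A1 had a log2 change of −0.37 ± 0.08 (SE, adjusted p = 0.0156) and COL1A2 0.28 ± 0.08 (adjusted p = 0.046), both short of 1.5-fold. The summed log2 signal of the 4 epithelial markers was 45.4 to 45.6 in the PCA pollutant group and 47.1 to 47.5 in the evening control. Most of this came through CDH1, an adhesion protein whose log2 change was −1.11 ± 0.07 (SE, adjusted p = 0.000665). The sum was also lower after primary pollutants, 46.1 to 46.2, against 47.1 to 47.7 in the morning control. There EPCAM had −0.46 ± 0.22 (adjusted p = 0.625) and CDH1 −0.41 ± 0.07 (adjusted p = 0.341). The part of these markers in the values below was not tested. Neither ACTB nor GAPDH was called in any comparison.

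A gene was said to rise or fall when its Benjamini-Hochberg adjusted p, from limma over all probe sets tested, was under 0.05 and its change reached 1.5-fold. Because RNA was taken from whole cultures and all arrays were put on 1 scale, fewer cells expressing a gene and less of its RNA per cell cannot be told apart.

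The promoters that accompany the main genes were taken from the RefSeq annotation of GRCh38.p14, which held windows for 28 of the 32 genes, 38 windows in all, each running from 250 bases before a transcript start to 50 after it. SREBPs bind the sterol regulatory element and act with NF-Y at CCAAT boxes and with Sp1 at GC boxes. The 4 stretches below, each the 250 bases before a start, show these motifs in the gene that fell furthest (SCD), the other gene that fell (ELOVL6), the regulator that carries the classical element (SREBF2) and a sterol gene with several CCAAT boxes whose signal differed little (MVK). Capitals mark CCAAT or its reverse complement ATTGG in SCD, SREBF2 and MVK, also the element TCACCCCAC in SREBF2, and GGGCGG in ELOVL6. GGGCGG or its reverse complement CCGCCC also stands in the printed bases of SCD, SREBF2 and MVK, where it is left unmarked.
SCD: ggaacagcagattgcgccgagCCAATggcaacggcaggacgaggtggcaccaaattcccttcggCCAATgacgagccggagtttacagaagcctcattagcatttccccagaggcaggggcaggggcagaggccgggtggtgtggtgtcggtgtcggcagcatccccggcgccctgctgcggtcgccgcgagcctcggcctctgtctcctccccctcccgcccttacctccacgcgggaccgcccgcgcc
ELOVL6: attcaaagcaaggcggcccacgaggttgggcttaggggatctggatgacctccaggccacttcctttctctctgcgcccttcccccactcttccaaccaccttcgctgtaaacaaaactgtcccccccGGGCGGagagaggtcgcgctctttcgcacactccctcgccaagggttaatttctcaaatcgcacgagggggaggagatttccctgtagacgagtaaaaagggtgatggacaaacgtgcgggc
SREBF2: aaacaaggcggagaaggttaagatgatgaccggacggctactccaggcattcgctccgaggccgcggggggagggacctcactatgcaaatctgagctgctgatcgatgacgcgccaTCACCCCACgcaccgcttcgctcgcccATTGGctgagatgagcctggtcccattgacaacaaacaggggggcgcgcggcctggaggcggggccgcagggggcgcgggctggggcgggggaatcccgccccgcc
MVK: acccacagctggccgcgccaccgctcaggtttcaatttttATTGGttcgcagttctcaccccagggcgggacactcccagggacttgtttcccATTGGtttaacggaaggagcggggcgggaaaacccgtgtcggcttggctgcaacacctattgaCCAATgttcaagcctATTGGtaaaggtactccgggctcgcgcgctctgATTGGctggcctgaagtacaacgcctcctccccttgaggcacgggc
The stretches lie at chr10:100346983-100347232 (plus strand), chr4:110198616-110198865 (minus strand, printed 5′ to 3′), chr22:41832855-41833104 (plus strand) and chr12:109573544-109573793 (plus strand). Those of ELOVL6 and MVK belong to 1 of several annotated starts.

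The letters CCAAT, on either strand, were found in 26 of the 38 member windows (68.4%), against 34.6% of the 35116 windows in the table. Counted by gene, 12 of 14 sterol genes, 7 of 9 fatty acid genes and 3 of 5 regulators held one, against 42.2% of the 14210 genes on the arrays that have a window. GGGCGG stood in 86.8% of member windows and 45% of all windows, and CACGTG, the E-box, in 13.2% and 7.26%. In the windows of genes on the arrays the shares were 57.3% for GGGCGG and 8.33% for CACGTG. TCACNCCAC, the letters searched for the sterol regulatory element, were found in 1 member window, that of SREBF2 (2.63%, against 1.13% of all windows). Matches of different motifs shared no letters in the printed stretches. Of the 10 genes with a window whose signal was lower at an adjusted p under 0.05 after the PCA pollutants, 8 held CCAAT, as did 13 of the 17 other members with a value and a window. The sets were not matched on base composition, and a match describes letters only.

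Fatty acid synthesis was the branch with the larger differences after exposure to PCA pollutants. Of its 10 genes, 2 fell (SCD and ELOVL6), none rose and 8 did not pass both limits. In this comparison 3.53% of the 17470 genes tested were called, 2.66% as lower and 0.876% as higher. On the adjusted p alone, 6 of the 10 were lower and none higher, where 14.1% of all genes were lower and 5.72% higher. Their median log2 fold change was −0.38, beside −0.0017 over all genes tested. At an unadjusted p under 0.05 there were 9, all lower, against 22.5% of all genes. In 9 of the 10 both exposed arrays lay below both controls, an order seen in 36.6% of all genes.

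SCD, stearoyl-CoA desaturase, places the first double bond in palmitate and stearate and so makes palmitoleate and oleate. Its log2 signal was 11.01 and 11.08 after PCA pollutants, against 11.79 and 11.64 in the evening control. The exposed arrays agreed closely and lay well below both controls. The log2 fold change was −0.67 ± 0.08 (SE, adjusted p = 0.0028), or 1.59-fold lower. ELOVL6, the elongase that lengthens palmitate to stearate and so feeds SCD, had log2 signals of 8.60 and 8.32 after PCA pollutants, against 9.17 and 9.04 in the evening control. Its exposed arrays were further apart than those of any other member in that group, although both were below the controls. The change was −0.64 ± 0.11 (SE, adjusted p = 0.00803), or 1.56-fold lower. Without evening control replicate 1 it was −0.58 (adjusted p = 0.0547), and without PCA pollutant replicate 2 it was −0.50 (adjusted p = 0.0334), so that ELOVL6 was then not called. Both genes also lay near the fold limit: after a second quantile normalization, cyclic loess, scaling to ribosomal protein genes or with the morning controls in place of the evening ones, neither reached 1.5-fold, while SCD kept an adjusted p of at most 0.0245 under every alternative run other than the test against the fold limit itself.

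**Figure D1:**
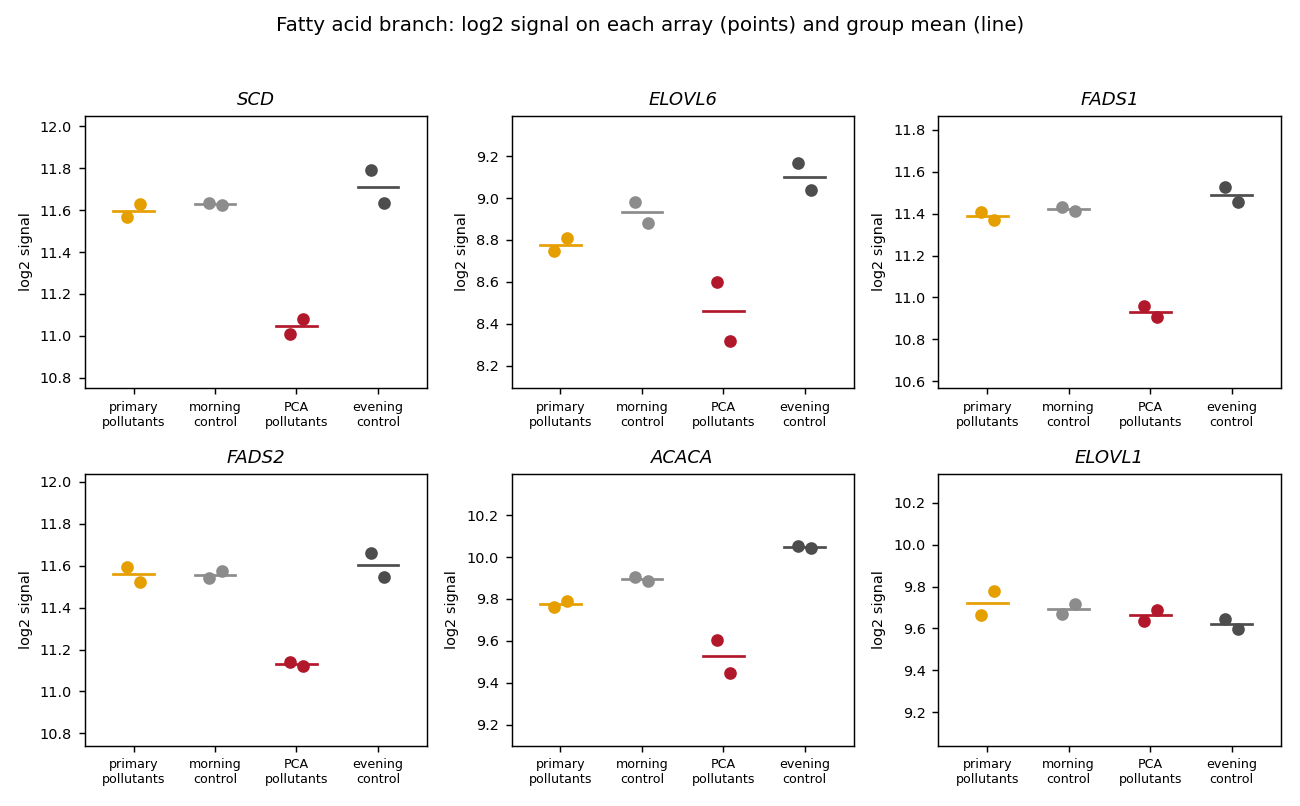
Log2 signal of 6 fatty acid genes on each of the 8 arrays (y axis, each panel 1.3 log2 units high), by group (x axis), with points for arrays and a line for the group mean. The PCA pollutant arrays lie below the evening control in 5 panels, by −0.67 in SCD, and overlap the other groups in ELOVL1.

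FADS1 and FADS2, neighbouring genes on chromosome 11, encode the desaturases of polyunsaturated fatty acids. FADS1 had log2 signals of 10.96 and 10.91 after PCA pollutants and 11.53 and 11.45 in the evening control. FADS2 had 11.14 and 11.12 after PCA pollutants and 11.66 and 11.55 in the evening control. In both genes the exposed arrays lay apart from the controls by several times the gap between replicates. The changes were −0.56 ± 0.07 (SE, adjusted p = 0.00318) for FADS1 and −0.47 ± 0.07 (adjusted p = 0.00666) for FADS2, both short of 1.5-fold. Without evening control replicate 2, or with arrays centred on their medians, FADS1 reached −0.59 or −0.62 and was called.

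ACACA, acetyl-CoA carboxylase, makes the malonyl-CoA from which every new chain is built. Its log2 signal was 9.60 and 9.45 after PCA pollutants, against 10.05 and 10.04 in the evening control, a change of −0.52 ± 0.08 (SE, adjusted p = 0.00563) or 1.43-fold lower. Without PCA pollutant replicate 1 the change was −0.60 and ACACA was called. ACLY, ATP citrate lyase, supplies the acetyl-CoA for both branches and had the highest mean signal of the 30 genes. It read 11.99 and 11.92 after PCA pollutants, against 12.26 and 12.23 in the evening control, a smaller difference of −0.28 ± 0.07 (adjusted p = 0.0289). The enzymes at the entry to the pathway were thus lower with SCD and ELOVL6, each without overlap between groups, as in 36.6% of all genes.

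FASN, the fatty acid synthase that lies between ACACA and the elongases, had a log2 change of −0.26 ± 0.10 (SE, adjusted p = 0.0955, 95% interval −0.48 to −0.03) and did not pass. ELOVL5, an elongase of polyunsaturated chains, had −0.18 ± 0.07 (adjusted p = 0.0994). GPAM, the mitochondrial acyltransferase that starts glycerolipid synthesis, had the lowest mean signal of the 30 genes, 7.68 and 7.57 after PCA pollutants and 7.86 and 7.94 in the evening control (−0.27 ± 0.11, adjusted p = 0.101). These 3 genes had non-overlapping groups in the same direction as SCD, an order seen in 36.6% of all genes. ELOVL1, which extends saturated very long chains, was the exception, with a change of 0.04 ± 0.07 and a 95% interval of −0.13 to 0.21.

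The sterol branch was divided after PCA pollutants. None of its 15 genes was called. On the adjusted p alone 5 were lower (ACAT2, FDPS, LSS, TM7SF2 and DHCR7) and none higher, and the log2 change was negative in 10 and positive in 5, where 50.3% of all genes had a negative value. The median log2 change was −0.12, and it turned to 0.03 with arrays scaled to ribosomal protein genes, which moved the median of all genes to 0.14. Exposed arrays lay below both controls in 8 genes and above both in 3 (HMGCS1, SQLE and NSDHL), orders that 36.6% and 31.7% of all genes showed.

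Among the early steps, ACAT2, the cytosolic thiolase that condenses acetyl-CoA, had log2 signals of 9.29 and 9.15 after PCA pollutants, against 9.71 and 9.57 in the evening control (−0.41 ± 0.10, SE, adjusted p = 0.0235). HMGCS1, the synthase that follows it, did not share this direction. It read 11.48 and 11.39 after PCA pollutants and 11.37 and 11.20 in the evening control, with a change of 0.15 ± 0.08 (adjusted p = 0.227, 95% interval −0.04 to 0.34). The mevalonate enzymes had small values: MVK, the kinase whose promoter is printed above, −0.12 ± 0.08, PMVK, the next kinase, −0.16 ± 0.07, and MVD, the decarboxylase, −0.05 ± 0.09, all with adjusted p of 0.13 or more. IDI1, the isomerase of isopentenyl diphosphate, had 0.04 ± 0.08.

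FDPS, farnesyl diphosphate synthase, stands where sterol synthesis parts from protein prenylation. It read 9.24 and 9.29 after PCA pollutants, against 9.73 and 9.63 in the evening control (−0.41 ± 0.07, SE, adjusted p = 0.00918). SQLE, the squalene epoxidase and a rate-limiting enzyme, lay the other way, at 11.46 and 11.54 after PCA pollutants and 11.40 and 11.29 in the evening control, but its change of 0.16 ± 0.08 did not pass (adjusted p = 0.176). LSS, which closes the rings to give lanosterol, read 8.06 and 8.09 after PCA pollutants and 8.52 and 8.53 in the evening control (−0.45 ± 0.07, adjusted p = 0.00794, 1.37-fold lower). SQLE and LSS act in sequence, and their exposed arrays lay on opposite sides of the controls. The adjusted p of HMGCS1 and SQLE depended on scale, and with cyclic loess or with arrays scaled to ribosomal protein genes both were higher at an adjusted p under 0.05.

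**Figure D2:**
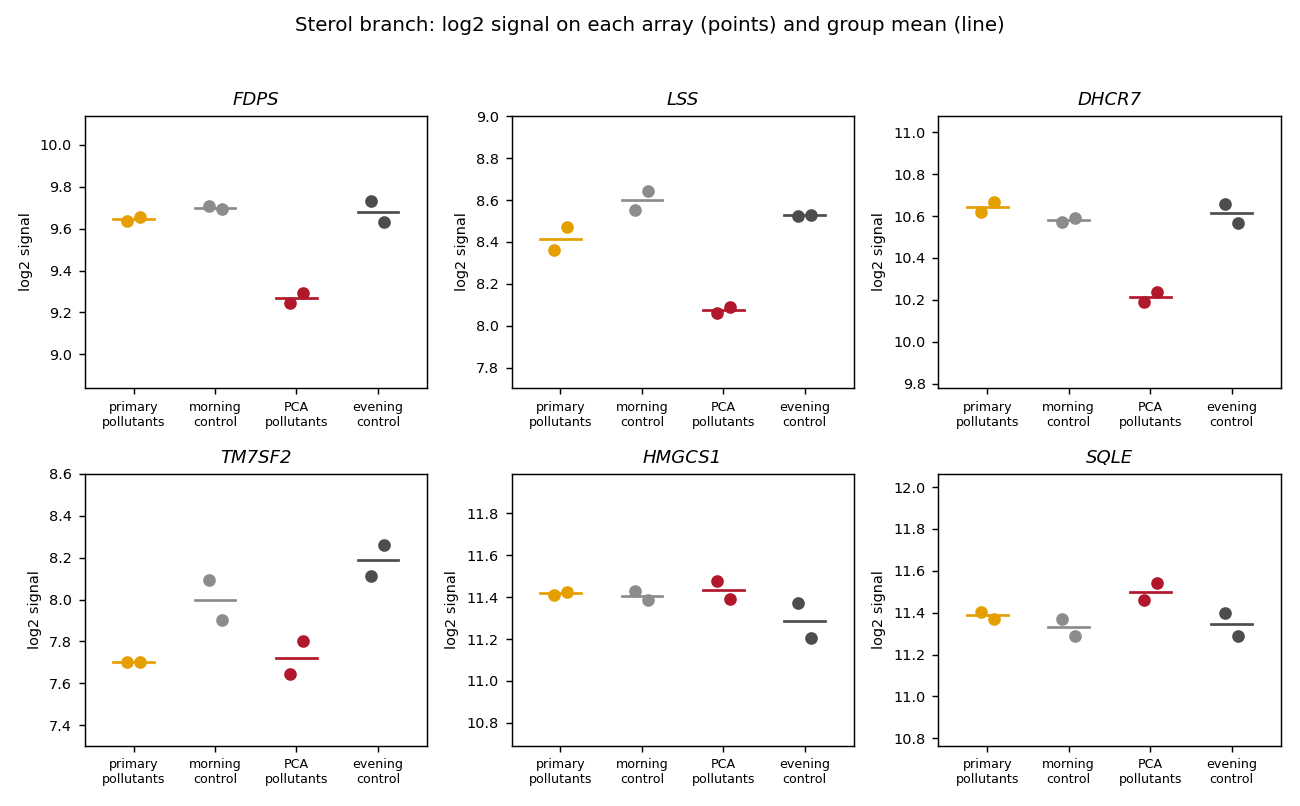
Log2 signal of 6 sterol genes on each of the 8 arrays (y axis, each panel 1.3 log2 units high), by group (x axis), with points for arrays and a line for the group mean. After PCA pollutants FDPS, LSS, DHCR7 and TM7SF2 lie below the evening control, and HMGCS1 and SQLE lie slightly above it.

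Of the enzymes that turn lanosterol into cholesterol, TM7SF2, a sterol reductase of the nuclear and endoplasmic reticulum membranes, read 7.64 and 7.80 after PCA pollutants, against 8.11 and 8.26 in the evening control (−0.46 ± 0.10, SE, adjusted p = 0.0176). DHCR7, the reductase that yields cholesterol itself in an arm of the pathway, read 10.19 and 10.24 after PCA pollutants and 10.66 and 10.57 in the evening control (−0.40 ± 0.07, adjusted p = 0.0105). The exposed arrays of both genes were clear of the controls. EBP, the sterol isomerase, had −0.18 ± 0.07 (adjusted p = 0.0935). CYP51A1, the lanosterol demethylase, had −0.05 ± 0.12, NSDHL, a sterol dehydrogenase, 0.06 ± 0.07, and SC5D, a sterol desaturase, 0.09 ± 0.11, with 95% intervals that reached at most 0.33 in size. Lower signal was therefore not shared by all steps, and the 5 genes past the adjusted p are spread from the start of the branch to its end.

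The count of 5 was lower in fits that left 1 evening control array, although the log2 changes stayed negative. With any 1 array left out, ACAT2 ran from −0.49 to −0.34, FDPS from −0.46 to −0.36 and LSS from −0.47 to −0.44. TM7SF2 ran from −0.54 to −0.39 and DHCR7 from −0.44 to −0.35. Without evening control replicate 1 no sterol gene passed the adjusted p, and without evening control replicate 2 the count was 2. The fatty acid count of 6 became 3 without evening control replicate 1.

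**Figure D3:**
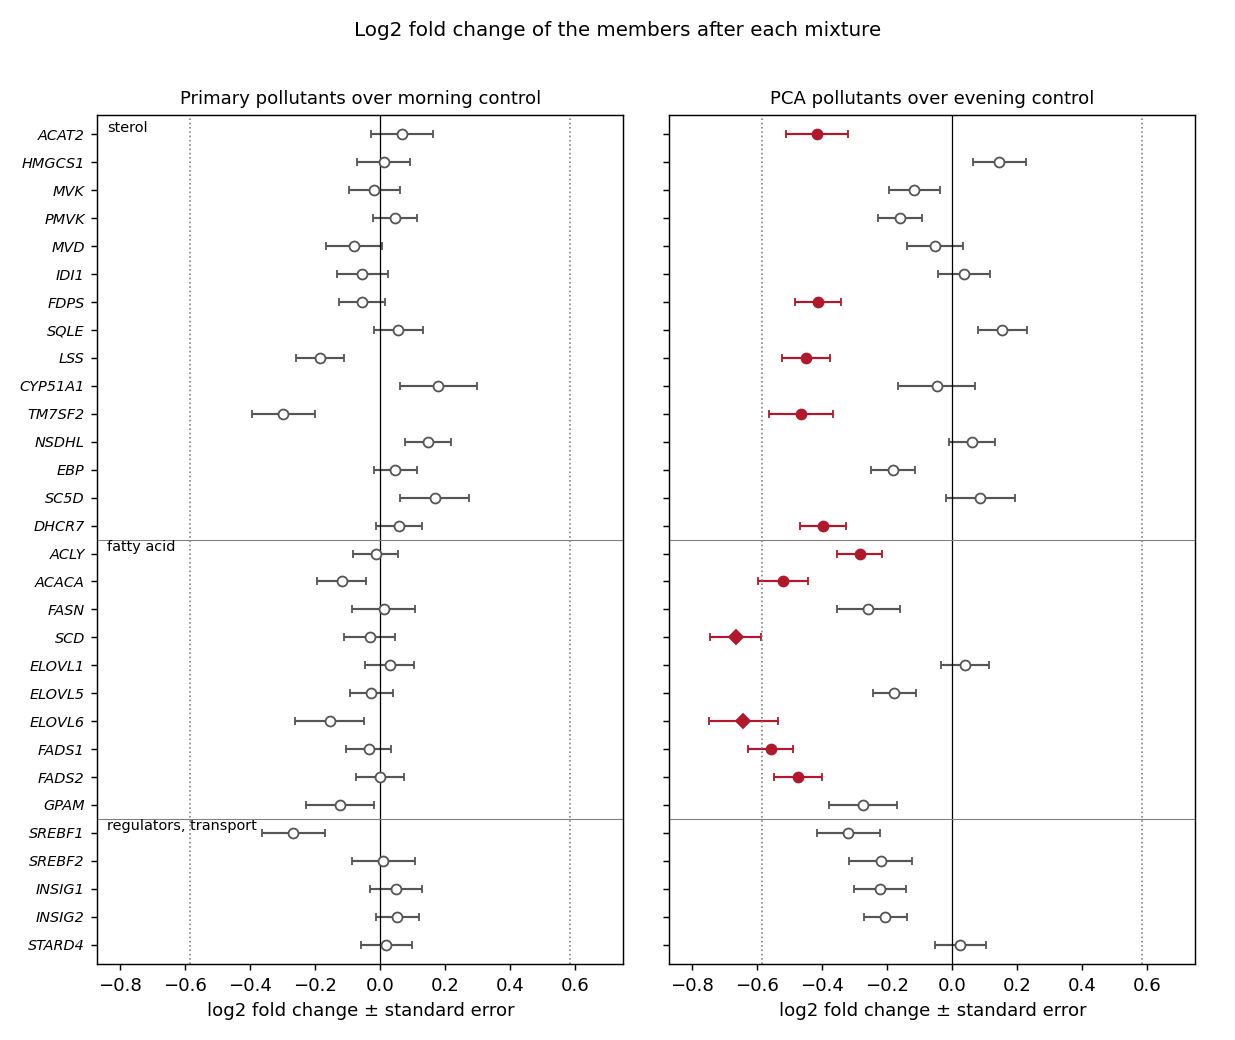
Log2 fold change ± standard error (x axis) of the 30 genes (y axis) after primary pollutants over the morning control (left) and PCA pollutants over the evening control (right). Filled red symbols have an adjusted p under 0.05, diamonds also reach 1.5-fold (dotted lines), and all 11 filled symbols, the 2 diamonds among them, stand in the right panel at negative values.

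None of the 5 regulators and transport genes was called or passed the adjusted p after PCA pollutants, and their median log2 change was −0.22. It was −0.11 after a second quantile normalization, −0.0858 after cyclic loess and −0.0783 with arrays scaled to ribosomal protein genes. SREBF1, whose product chiefly drives the fatty acid genes, read 8.06 and 8.28 after PCA pollutants, against 8.50 and 8.48 in the evening control (−0.32 ± 0.10, SE, adjusted p = 0.0538). The replicates after PCA pollutants differed by more than those of the control, and both lay below it. SREBF2, whose product chiefly drives the sterol genes and whose promoter is printed above, read 8.93 and 8.67 after PCA pollutants and 9.04 and 9.00 in the evening control (−0.22 ± 0.10, adjusted p = 0.143). INSIG1, the SREBP-retaining protein that is itself a target of SREBP, read 9.67 and 9.73 after PCA pollutants and 9.97 and 9.87 in the evening control (−0.22 ± 0.08, adjusted p = 0.087). INSIG2, its relative, had −0.20 ± 0.07 (adjusted p = 0.0667). These 4 genes were lower without overlap between groups, an order seen in 36.6% of all genes. STARD4, a cytosolic carrier of cholesterol, had 0.03 ± 0.08. SREBF1 and INSIG2 passed the adjusted p, as lower, when a signal of 100 rather than 30 was required of a probe set, and both passed together with INSIG1 when arrays were centred on their medians, with a trended prior or with all 4 controls. INSIG2 alone passed in the analysis of variance, and SREBF1 alone with exchanged controls.

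After the primary pollutants none of the 30 genes was called or passed the adjusted p, and none of the 17381 genes tested was called (0%). At an unadjusted p under 0.05 there were 3 members, all lower, where 4.67% of all genes were lower and 3.29% higher. The smallest adjusted p among the members was 0.499, and an analysis of variance with the same fold limit called none of them either. TM7SF2 read 7.70 and 7.70 after primary pollutants, against 8.09 and 7.90 in the morning control (−0.30 ± 0.10, SE, unadjusted p = 0.0165). SREBF1 read 8.31 and 8.23 after primary pollutants and 8.46 and 8.62 in the morning control (−0.27 ± 0.10, unadjusted p = 0.0252). LSS read 8.36 and 8.47 after primary pollutants and 8.55 and 8.64 in the morning control (−0.18 ± 0.07, unadjusted p = 0.0395). In each of the 3 the exposed arrays lay below both controls, as they did in 21.7% of all genes.

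The genes that fell after PCA pollutants had small values after primary pollutants. SCD read 11.57 and 11.63 after primary pollutants and 11.64 and 11.62 in the morning control, so the groups overlapped, with a change of −0.03 ± 0.08 and a 95% interval of −0.21 to 0.15. ELOVL6 read 8.75 and 8.81 after primary pollutants and 8.98 and 8.88 in the morning control, lower without overlap, with a change of −0.15 ± 0.11 (adjusted p = 0.738). FADS1, FADS2 and ACLY had changes of −0.03 ± 0.07, 0.00065 ± 0.07 and −0.01 ± 0.07, and ACACA −0.12 ± 0.08. The branch medians were 0.05 for the sterol genes and −0.03 for the fatty acid genes, neither of which kept its sign under every alternative. The sterol median was −0.0109 without morning control replicate 2 and 0.0049 with exchanged controls, and the fatty acid median was 0.07 with arrays scaled to ribosomal protein genes. The largest positive changes, 0.18 ± 0.12 in CYP51A1 and 0.17 ± 0.11 in SC5D, each came from 1 array: CYP51A1 read 10.72 and 10.39 after primary pollutants and 10.35 and 10.40 in the morning control.

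**Figure D4:**
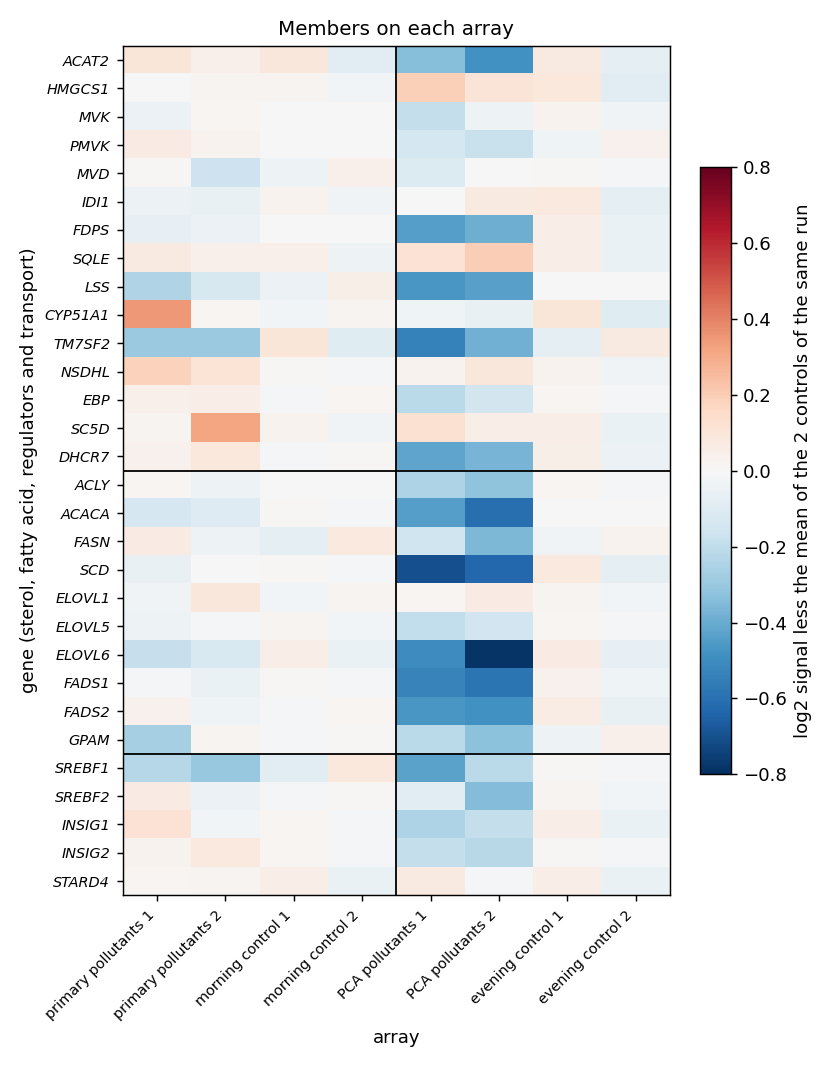
Log2 signal of each gene (rows, by branch) on each array (columns), less the mean of the 2 controls of the same run. Blue marks lower signal, and the fatty acid rows are blue on both PCA pollutant arrays except ELOVL1, while the 2 primary pollutant arrays hold paler colours of both signs.

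The exposures could also be compared by the order of arrays alone. In 7 genes (FDPS, LSS, TM7SF2, ACACA, ELOVL6, FADS1 and SREBF1) exposed arrays lay below their own controls after both mixtures, as in 14.4% of the 17311 genes tested for both. In 4 genes (PMVK, EBP, DHCR7 and INSIG2) they lay above the controls after primary pollutants and below them after PCA pollutants, as in 2.85% of all genes. NSDHL lay above its controls after both mixtures, as 8.18% of genes did. After primary pollutants none of the differences behind these orders went past the −0.30 of TM7SF2.

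The difference between the responses, the PCA change less the primary change, was tested in the same fit and addressed whether the mixtures acted unlike each other on these genes. No member was called, and 0.439% of the 17540 genes tested were, 0.348% as lower. At an unadjusted p under 0.05 there were 13 of 30 members, all lower, 6 of them fatty acid genes and 5 sterol genes, where 11.4% of all genes were lower. SCD had the largest difference, −0.63 ± 0.11 (SE, adjusted p = 0.0635, 95% interval −0.90 to −0.37), and it was called when a signal of 100 was required or when the prior variance followed the mean signal. FADS1 had −0.52 ± 0.10 (adjusted p = 0.07), FADS2 −0.47 ± 0.10 (adjusted p = 0.095) and DHCR7 −0.46 ± 0.10 (adjusted p = 0.0947). TM7SF2 and SREBF1, lower after both mixtures, had differences of −0.17 ± 0.14 and −0.05 ± 0.14. Mixture, hour of exposure and exposure run cannot be told apart here, since each mixture was tested in 1 run at 1 time of day.

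The controls of the runs were compared to show how far the genes moved without pollutants. Evening over morning control, no member was called, none of 17310 genes was (0%), and no member had an unadjusted p under 0.05, against 5.08% of all genes. The largest positive value was CYP51A1, 0.22 ± 0.12 (SE). Of the 10 fatty acid genes 8 had a positive value, 6 of them without overlap, and 1 was lower without overlap. Over all 17310 genes 3817 were higher and 3409 lower without overlap. The part of this offset in the PCA comparison was not tested. SCD read 11.79 and 11.64 in the evening control and 11.64 and 11.62 in the morning control, a difference of 0.08 ± 0.08, and ELOVL6 read 9.17 and 9.04 in the evening control and 8.98 and 8.88 in the morning control, a difference of 0.17 ± 0.11. For both genes the evening control lay on the high side, and for both the PCA pollutant arrays were below all 6 other arrays.

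Other genes of lipid handling were read from 5 lists, 65 of 77 genes with a value. After PCA pollutants 2.66% of all genes fell and 14.1% were lower on the adjusted p. Among 20 further fatty acid genes, 2 fell and 8 were lower on the adjusted p, with none higher and a median log2 change of −0.25. ACSS2, which makes acetyl-CoA from acetate and so feeds both branches, read 8.53 and 8.51 after PCA pollutants, against 9.17 and 9.11 in the evening control (−0.62 ± 0.07, SE, adjusted p = 0.00234). HACD4, a dehydratase of chain elongation, read 6.50 and 6.29 after PCA pollutants and 7.22 and 7.14 in the evening control (−0.79 ± 0.14, adjusted p = 0.0106). HACD4 lost its call without evening control replicate 1 (adjusted p = 0.0606), evening control replicate 2 (0.0519) or PCA pollutant replicate 2 (0.0571), and ACSS2 came short of 1.5-fold under 3 of the other normalizations, at −0.52 to −0.48. Of 9 further genes of sterol synthesis and SREBP processing, none was called and 3 were lower on the adjusted p, among them ERLIN2, a membrane protein that takes part in turnover of the sterol machinery (−0.48 ± 0.07, adjusted p = 0.00608), and ACAT1, the mitochondrial thiolase (−0.56 ± 0.09, adjusted p = 0.00721).

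The list of sterol uptake, trafficking and storage held the most calls, 4 of 12, of which 3 fell and 1 rose, where 2.66% of all genes fell and 0.876% rose. SOAT1, which esterifies cholesterol for storage, read 9.24 and 9.15 after PCA pollutants, against 9.98 and 9.95 in the evening control, and fell by 0.77 on the log2 scale (SE 0.08, adjusted p = 0.00242). NCEH1, a hydrolase of cholesteryl esters, acts in the opposite sense and was the gene that rose, at 10.50 and 10.57 after PCA pollutants, against 9.90 and 9.96 in the evening control (0.60 ± 0.07, adjusted p = 0.00266). SCARB1, the receptor for high-density lipoprotein, fell with a change of −0.67 ± 0.08 (adjusted p = 0.00263), and so did GRAMD1A, a carrier of plasma membrane cholesterol to the endoplasmic reticulum (−0.67 ± 0.08, adjusted p = 0.00254). After primary pollutants the 4 had changes of the same sign, NCEH1 at 0.29 ± 0.07 (adjusted p = 0.449), and none passed. NCEH1 came short of 1.5-fold without evening control replicate 1 (0.57) or PCA pollutant replicate 2 (0.57), and SCARB1 and GRAMD1A did so after a second quantile normalization (−0.56 and −0.57), cyclic loess or ribosomal scaling.

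LXR is the nuclear receptor that senses oxidised cholesterol. Of 11 genes of LXR sensing and sterol export, ABCA1, the exporter of cholesterol to apolipoprotein, fell. It read 6.63 and 6.35 after PCA pollutants, against 7.14 and 7.14 in the evening control (−0.65 ± 0.11, SE, adjusted p = 0.00771). It was not called without evening control replicate 2 (adjusted p = 0.0505) or without PCA pollutant replicate 2 (−0.51). Another 3 of the list were lower on the adjusted p alone, where 14.1% of all genes were lower, and the list median was −0.09. Of 13 glycerolipid genes none was called. On the adjusted p 2 were lower and 2 higher, where 14.1% of all genes were lower and 5.72% higher. The lower were GPAT4, an acyltransferase (−0.32 ± 0.07, adjusted p = 0.0198), and LPIN2, a phosphatidate phosphatase (−0.42 ± 0.09, adjusted p = 0.0216). GPAT3, a related acyltransferase (0.26 ± 0.08, adjusted p = 0.049), and PLIN2, a coat protein of lipid droplets (0.32 ± 0.09, adjusted p = 0.049), were higher. These last 2 were named after their values were seen. No gene of the 5 lists was called after primary pollutants.

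**Figure D5:**
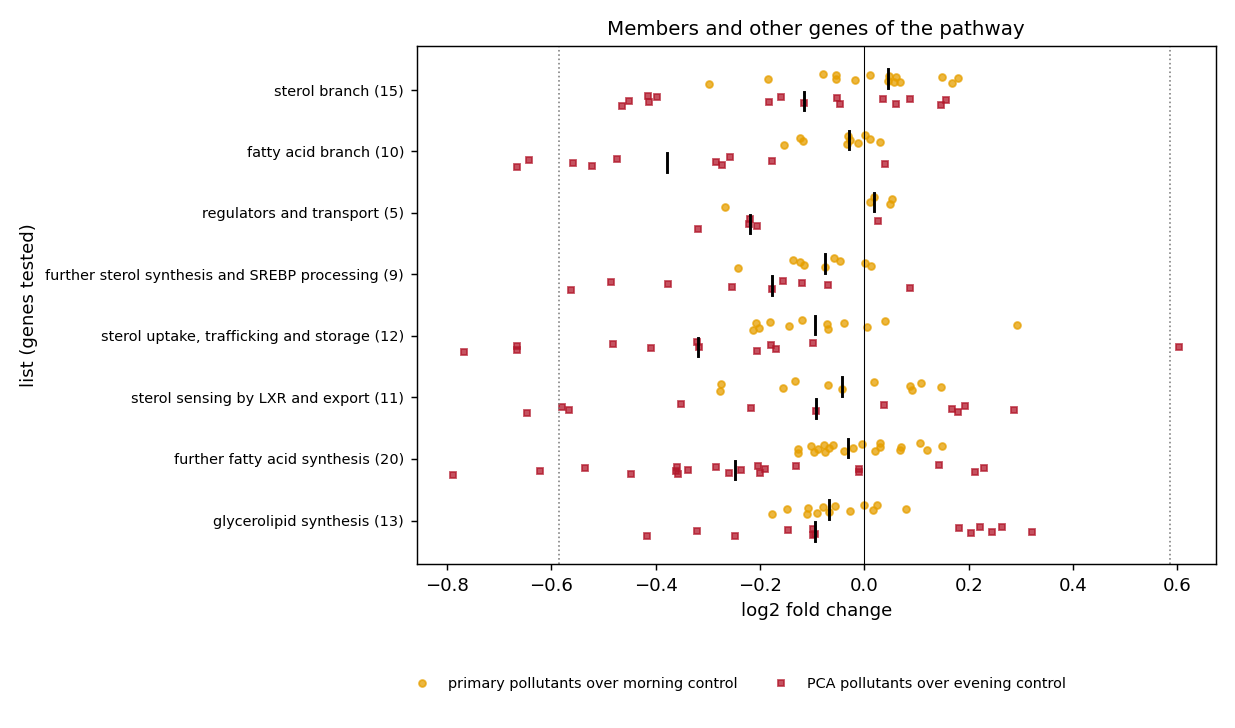
Log2 fold change (x axis) of each gene tested, by list (y axis, number of genes tested in brackets), with circles for primary pollutants and squares for PCA pollutants, each set against its own control, list medians as black bars and 1.5-fold as dotted lines. The fatty acid branch has the lowest PCA median, −0.38, and NCEH1 is the single square beyond the right dotted line.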

How the data were processed

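RNA of 8 A549 cultures, 2 per group, had been hybridized to Human Gene 1.0 ST arrays. Before deposit the authors had applied robust multichip average normalization, which gives log2 values, and the submitters' processing notes name Partek 6.4. No raw intensities were used here and the number of arrays limits the precision (median SE of a log2 fold change 0.091). Of 28869 probe sets, 19310 carry 1 symbol in the reference table, 1752 several and 7807 none, and a gene was read from its single-symbol probe set of highest mean signal. Probe sets with a linear signal of 30 on at least 1 array of a comparison were tested (25040 for primary, 25264 for PCA pollutants). Group means of all 8 arrays were fitted in limma 3.58.1 (R 4.3.3) with lmFit and eBayes, and p-values were adjusted by Benjamini-Hochberg over all probe sets tested. The study's numerical limits, 0.05 and 1.5-fold, were kept, with limma in place of its analysis of variance and Benjamini-Hochberg adjustment in place of its Storey q-values. The fit was checked on simulated data. Per-array values were given for members called, those with an unadjusted p under 0.01 after either mixture, 5 set genes (SREBF1, SREBF2, INSIG1, HMGCS1 and SQLE) and those of highest and lowest mean signal. From other lists called genes, or the 2 of smallest p, were named. The members and lists were chosen with earlier results of these data known. Alternatives covered filter, normalization, spread, test, limits, probe set, controls, pairing and each array left out. Promoters were RefSeq windows of GRCh38.p14. Python 3.11.15 and matplotlib 3.10.9 drew the plots.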

Additional observations from a re-analysis of the deposited data

Results flagged for a closer look

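ACSS2, the acetyl-CoA synthetase that uses acetate, was the gene of those followed whose response differed between the mixtures by the test of the difference itself. The PCA response less the primary response was −0.65 on the log2 scale (SE 0.09, adjusted p = 0.0392 in limma). It read 8.53 and 8.51 after PCA pollutants and 9.17 and 9.11 in the evening control, against 9.10 and 9.07 after primary pollutants and 9.06 and 9.06 in the morning control. The PCA pollutant arrays lay below the 6 others. The adjusted p was 0.0585 with no filter on low signal, 0.0551 after a second quantile normalization and 0.0954 with the replicate number as a block, and it ran from 0.0722 to 0.205 when any 1 array was left out, while the log2 difference then stayed between −0.68 and −0.62. Mixture, hour and exposure run cannot be told apart for this difference.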

How the results depend on the processing

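After PCA pollutants 2 genes were called, both of the fatty acid branch. The count was 0 after a second quantile normalization, cyclic loess, scaling to ribosomal protein genes, limma's treat against the fold limit and exchanged controls, and 1 (SCD) with all 4 controls. It was 11 with no fold limit, 5 in the sterol branch and 6 in the fatty acid branch. Leaving out 1 array gave 1 to 3, and the count was 1, SCD alone, without evening control replicate 1 or without PCA pollutants replicate 2, and 3 without PCA pollutants replicate 1 (ACACA added) or evening control replicate 2 (FADS1 added). For the difference between responses the count was 0, and 1 with a minimum signal of 100, a trended prior or either unadjusted p (SCD each time), and 1 with all 4 controls (ACAT2).

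Medians moved with the scale. In the order of a second quantile normalization, median centring, cyclic loess and ribosomal scaling, the sterol median after PCA pollutants was −0.0567, −0.176, −0.047 and 0.0254 (as reported −0.116) and the fatty acid median −0.318, −0.439, −0.294 and −0.237 (as reported −0.379). After primary pollutants the sterol median was 0.0478, 0.0278, 0.0603 and 0.141 (as reported 0.0458), with 0.0049 for exchanged and 0.0453 for all 4 controls. The fatty acid median was −0.0173, −0.047, −0.0102 and 0.0663 (as reported −0.029), with −0.0971 and −0.0698 for those controls. With 1 array left out, the sterol median ran from −0.0109 to 0.0458 after primary pollutants and −0.143 to −0.0606 after PCA pollutants, and the fatty acid median from −0.0405 to −0.0251 and −0.42 to −0.344. Ribosomal scaling moved the median of all genes to 0.141 after PCA and 0.0883 after primary pollutants. The cause of these changes was not tested. Of 1699 values of single genes under alternatives, 56 changed sign, none of them called in either fit and none above 0.18 in size as reported.

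The labels do not say what a replicate number shares, and the numbers were not treated as pairing the samples. Deviations of same-numbered arrays correlated at −0.124 to 0.0545 between groups, which cannot show whether those samples were handled together. With the number as a block (replicate block) 2 genes were called after PCA pollutants, the same as without it, and 0 in the other comparisons. With 2 arrays a group from 1 run, none of these values covers variation between runs.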
